A study of Mus musculus with 10 samples.

Results

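The genes described here are 10 transcription factors and cofactors of naive pluripotency, the state of the early mouse epiblast that embryonic stem cells can be held in: Nanog, Esrrb, Klf2, Klf4, Klf5, Tfcp2l1, Tbx3, Zfp42, Prdm14 and Tcl1. They were chosen by symbol from count tables of 52636 Ensembl gene identifiers. Each symbol matched 1 identifier, and all 10 were among the 16005 genes with enough counts to be tested. The libraries came from E14, an established mouse embryonic stem cell line derived from the blastocyst. RNA was taken after 24 h of retinoic acid (RA) at a labelled 2 µM, in medium from which LIF, a MEK inhibitor and a GSK inhibitor had been withdrawn. Unedited cells (genotype WT) were compared with cells from which a site bound by CTCF, a chromatin-loop protein, had been deleted next to enhancers of the HoxA cluster (genotype CBE-KO), with 2 libraries per genotype. Both groups received RA and no untreated library was analysed here, so the levels below are those left after 24 h of RA, with no measure of how far they had fallen. The submitters call the replicates biological, without saying whether they were separate cultures or whether CBE-KO is 1 clone, so p-values measure only the spread between these libraries.

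The naive state is kept by a network of transcription factors that activate one another and their own genes. LIF acts through Stat3 on Klf4 and Tfcp2l1, inhibition of GSK3 relieves repression by Tcf7l1 of genes such as Esrrb, Nanog and Klf2, and inhibition of MEK removes an ERK signal that drives exit from the state. When these inputs are withdrawn the network is normally dismantled, with Klf4, Tfcp2l1, Esrrb, Nanog and Zfp42 among the genes that are switched off.

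The libraries held 14108038 to 15632960 counts, which put 3 counts at 0.185 to 0.218 CPM, the count relative to the library total after TMM scaling, which sets libraries level on the bulk of their genes. Libraries of 1 genotype differed by more than sampling noise, with a chi-square per degree of freedom of 3.40 in WT and 2.70 in CBE-KO, against 20.3 to 23.2 between genotypes. The genotypes also differed in Y-linked genes. The summed level of Ddx3y, Eif2s3y, Kdm5d and Uty was 0.821 and 0.727 CPM in the WT libraries and 129.7 and 128.9 CPM in the CBE-KO libraries. This difference splits the libraries exactly as the genotype does, so its part in the values below cannot be told apart from that of the deletion.

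RNA of all 10 genes was present after 24 h of RA in both genotypes, and their differences between genotypes were small. Zfp42 and Klf4 were lower in CBE-KO, by 25.3% and 28.6%, and Tcl1 was lower by 16.1%. Nanog and Tfcp2l1 were slightly higher, by 10.9% and 11.9%. Esrrb, Klf2, Klf5, Tbx3 and Prdm14 did not pass the test. The 5 that passed, 2 higher and 3 lower, make up 50.0% of the 10, beside 43.1% of all tested genes (21.6% higher and 21.5% lower) in edgeR's quasi-likelihood test at a Benjamini-Hochberg adjusted p under 0.05. A share this near the background is not a result about these genes as a set. Their median log2 fold change was -0.0042, beside 0.0067 over all tested genes, and 7 of the 10 lay within the interquartile range of all tested genes, from -0.24 to 0.32. Counts per gene and library ran from 266 for Prdm14 to 14352 for Nanog, so none was near the floor. No gene of the 10 reached an absolute log2 fold change of 1, which 8.64% of all tested genes did together with the adjusted p.

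**Figure D1:**
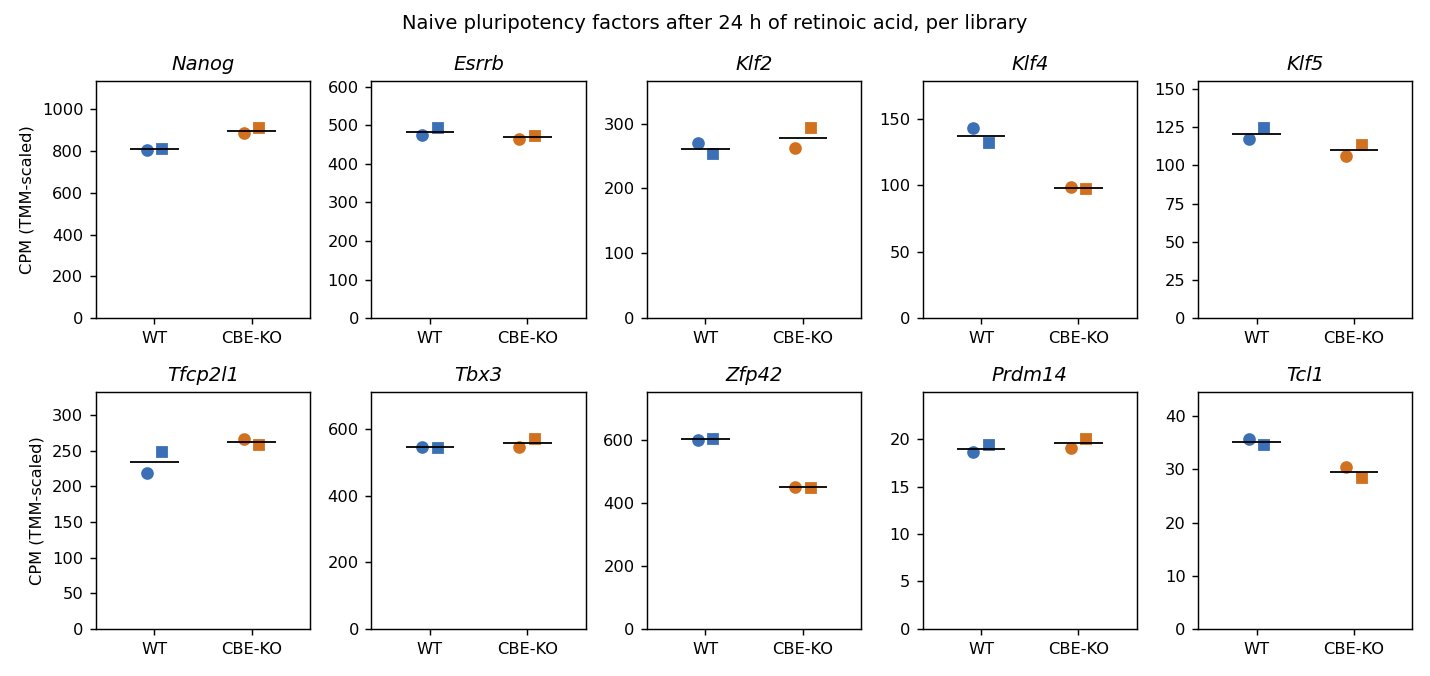
Level of each of the 10 genes in CPM (TMM-scaled, vertical axes from 0, a scale of its own per gene) in each library, with circles for replicate 1, squares for replicate 2 and a bar at the mean of 2 libraries. Zfp42 fell from a mean of 600.5 to 449 CPM and Klf4 from 137 to 97.9 CPM, while the libraries of the 2 genotypes overlapped for Klf2, Tbx3 and Prdm14.

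The genes lie on 7 chromosomes of the mouse build GRCm38, the mm10 build named in the submitters' processing notes. RefSeq's annotation of GRCm38.p6 places Nanog on chromosome 6 (122707489 to 122714633), Zfp42 on chromosome 8 (43295067 to 43307009) and Klf4 on chromosome 4 (55527137 to 55532475). These 3 are shown by sequence because theirs were the calls that passed in all 10 alternative fits that used every library, Nanog upward and the other 2 downward. RefSeq promoter windows (GRCm38.p6, 250 bases before to 50 after an annotated start) were found for 7 of the 10 genes in 9 windows, and none was at hand for Klf5, Tbx3 and Prdm14. Of the windows of Nanog, from different annotated starts, the one printed here is chr6:122707239-122707538 on the plus strand, that of Zfp42 is chr8:43306960-43307259 on the minus strand and that of Klf4 is chr4:55532426-55532725 on the minus strand, each written 5′ to 3′ along the gene. Capitals mark letters that match a motif searched on both strands: the core site of retinoic acid receptors AGGTCA, direct repeats of that site with a spacer of 2 or 5 bases, the ESRRB motif AAGGTCA, which contains the core site, the KLF motif GGGNGTGG, the STAT motif TTCCNGGAA, the octamer core TTTGCAT and the TCF motif ATCAAAG.
Nanog: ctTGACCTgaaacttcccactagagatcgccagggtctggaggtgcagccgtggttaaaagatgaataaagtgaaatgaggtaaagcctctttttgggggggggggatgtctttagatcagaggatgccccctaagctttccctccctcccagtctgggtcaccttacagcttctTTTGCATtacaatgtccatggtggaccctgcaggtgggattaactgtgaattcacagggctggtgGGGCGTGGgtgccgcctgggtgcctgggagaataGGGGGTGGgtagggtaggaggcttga
Zfp42: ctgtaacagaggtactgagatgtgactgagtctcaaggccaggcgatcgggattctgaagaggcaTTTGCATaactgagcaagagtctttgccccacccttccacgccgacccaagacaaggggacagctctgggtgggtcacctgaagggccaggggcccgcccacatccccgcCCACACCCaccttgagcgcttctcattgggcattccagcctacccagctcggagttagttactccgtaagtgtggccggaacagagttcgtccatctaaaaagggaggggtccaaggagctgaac
Klf4: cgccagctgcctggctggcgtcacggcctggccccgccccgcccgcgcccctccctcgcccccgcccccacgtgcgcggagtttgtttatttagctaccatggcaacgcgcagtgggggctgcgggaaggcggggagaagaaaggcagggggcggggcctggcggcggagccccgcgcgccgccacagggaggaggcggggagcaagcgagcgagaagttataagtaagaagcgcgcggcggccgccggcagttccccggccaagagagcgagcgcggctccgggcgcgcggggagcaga

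The octamer core, which Pou5f1 and related factors bind, was found in both Nanog and Zfp42, at -75 and -185 from the annotated start. It was present in 4.63% of all 32851 windows. The KLF letters stood at -10 and 25 in Nanog, at -75 in Zfp42 and at -61 and -47 in the window of Tfcp2l1, and were in 17.6% of all windows. The core site AGGTCA was found at -248 in Nanog and is in 16.3% of all windows, while its repeats, in 0.00913% of all windows for either spacer, and the ESRRB (4.72%), STAT (1.15%) and TCF (3.73%) letters were in none of the 9. The window of Klf4, with 74.3% G and C, held none of the letters searched, and neither did those of Klf2, Esrrb and Tcl1. Nanog and Zfp42 held 2 of the same motifs, and Klf4 held neither. A link between these letters and the direction of change was not tested. These matches describe letters in a short window and say nothing of binding in these cells.

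Nanog (ENSMUSG00000012396) encodes the homeodomain factor that protects self-renewal in these cells and represses entry into differentiation. It stood at 806 and 809.8 CPM in WT and at 884 and 908 CPM in CBE-KO, so both CBE-KO libraries lay above both WT libraries. Its log2 fold change was 0.15 ± 0.04 (SE; adjusted p = 0.0107 in edgeR), and the 95% interval of the fold ran from 1.04 to 1.183. The rise was kept in all 10 alternative fits with every library, with log2 fold changes from 0.14 to 0.25. It was no longer past the threshold without CBE-KO replicate 1 (0.17, edgeR adjusted p = 0.0519) or without CBE-KO replicate 2 (0.13, edgeR adjusted p = 0.146). Processed copies of Nanog took almost no reads in the counts: Nanog-ps1 was counted 1 and 0 times in WT against 3 and 0 times in CBE-KO.

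Esrrb (ENSMUSG00000021255), an orphan nuclear receptor that binds many of the same genes as Nanog and can stand in for it, had 473 and 491 CPM in WT and 465 and 473 CPM in CBE-KO. Both CBE-KO libraries were below both WT libraries, the nearest pair at 472.8 and 473.3 CPM. Its log2 fold change was -0.04 ± 0.05 (SE; adjusted p = 0.504 in edgeR), and the interval of the fold, 0.909 to 1.04, bounds the difference. With library totals as the only scaling the sign turned, to 0.06 (edgeR adjusted p = 0.291).

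Zfp42 (ENSMUSG00000051176), known as Rex1, is a zinc finger protein whose loss is used as a reporter of the moment cells leave the naive state. Its levels were 599 and 601 CPM in WT and 451 and 446 CPM in CBE-KO. The gap between genotypes was wide beside the difference of a few CPM between replicates. The log2 fold change was -0.42 ± 0.04 (SE; adjusted p = 8.25e-07 in edgeR), with an interval of the fold from 0.700 to 0.798. Every one of the 14 alternative fits, with every library or with 1 left out, called Zfp42 lower, with log2 fold changes from -0.43 to -0.32.

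The Krüppel-like factors Klf2, Klf4 and Klf5 bind largely the same sites in embryonic stem cells and can partly replace one another, but they answer to different inputs. Of the 3, Klf4 passed the test here, and the differences between them were not tested. Klf4 (ENSMUSG00000003032), which Stat3 activates downstream of LIF, had 143 and 132 CPM in WT and 98.9 and 96.9 CPM in CBE-KO. Both CBE-KO libraries lay well below both WT libraries. This was the widest difference among the 10 genes, a log2 fold change of -0.49 ± 0.05 (SE; adjusted p = 1.46e-06 in edgeR), and it too passed in all 14 alternative fits, from -0.55 to -0.38. Klf2 (ENSMUSG00000055148), which is sensitive to MEK and ERK signalling, had 269.8 and 253 CPM in WT and 262 and 292 CPM in CBE-KO. Its libraries overlapped between genotypes, and the log2 fold change of 0.08 ± 0.06 did not pass (SE; adjusted p = 0.251 in edgeR; interval of the fold 0.976 to 1.15). Library totals alone called it higher (0.19, edgeR adjusted p = 0.00644). Klf5 (ENSMUSG00000005148), which is also active in the inner cell mass and trophectoderm of the embryo, had 117 and 124 CPM in WT and 106 and 113 CPM in CBE-KO. The genotypes did not overlap, but the log2 fold change of -0.14 ± 0.05 lay just outside the threshold (SE; adjusted p = 0.0521 in edgeR). It passed with median-of-ratios scaling (edgeR adjusted p = 0.0354), with robust moderation (edgeR adjusted p = 0.0365), without WT replicate 1 (edgeR adjusted p = 0.00868) and without CBE-KO replicate 2 (edgeR adjusted p = 0.0426), so its call turned on such choices.

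Tfcp2l1 (ENSMUSG00000026380), a grainyhead-family factor that LIF and Stat3 also activate, had 219 and 249 CPM in WT and 266 and 257 CPM in CBE-KO. The CBE-KO libraries were above both WT libraries, but the WT replicates lay farther apart than the nearest pair of libraries across genotypes. The log2 fold change was 0.16 ± 0.06 (SE; adjusted p = 0.0272 in edgeR; interval of the fold 1.03 to 1.21). The call was lost in DESeq2 (0.15, adjusted p = 0.0915), with scaling by reference genes (0.18, edgeR adjusted p = 0.0542), without WT replicate 1 (0.07, edgeR adjusted p = 0.318) and without CBE-KO replicate 1 (0.14, edgeR adjusted p = 0.136). Klf4 and Tfcp2l1, both known as targets of LIF and Stat3, thus had log2 fold changes of opposite sign. The difference between them was not tested, and LIF had been withdrawn from the medium.

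Tbx3 (ENSMUSG00000018604) encodes a T-box factor that sustains Nanog expression and, in other settings, takes part in the turn to extraembryonic endoderm. It had 546 and 545 CPM in WT and 546 and 569.7 CPM in CBE-KO, and the genotypes overlapped. The log2 fold change was 0.03 ± 0.05 (SE; adjusted p = 0.5999 in edgeR; interval of the fold 0.957 to 1.09), past the threshold with library totals alone (0.14, edgeR adjusted p = 0.0180). Prdm14 (ENSMUSG00000042414), which restrains FGF receptor signalling and the DNA methyltransferase genes and also acts in the founding of germ cells, was measured at 18.6 and 19.3 CPM in WT and 19.1 and 20.0 CPM in CBE-KO. Its libraries overlapped as well, and with the fewest counts of the 10 it had the widest interval of the fold, 0.882 to 1.20 (log2 fold change 0.04 ± 0.11, SE; adjusted p = 0.782 in edgeR). Tcl1 (ENSMUSG00000041359), a coactivator of the kinase Akt, had 35.7 and 34.6 CPM in WT and 30.5 and 28.4 CPM in CBE-KO. The CBE-KO libraries were both lower, with a log2 fold change of -0.25 ± 0.08 (SE; adjusted p = 0.0187 in edgeR). This call was lost in DESeq2 (adjusted p = 0.116), with library totals alone (-0.15, edgeR adjusted p = 0.161), with reference genes (edgeR adjusted p = 0.101), without WT replicate 1 (edgeR adjusted p = 0.0946) and without CBE-KO replicate 2 (edgeR adjusted p = 0.143).

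**Figure D2:**
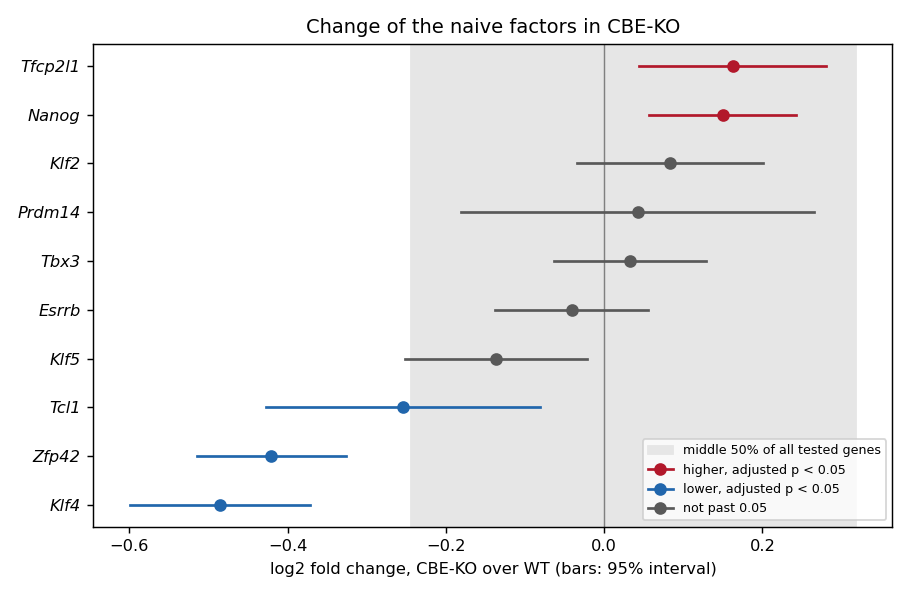
Log2 fold change of CBE-KO over WT (horizontal axis) for the 10 genes, with 95% intervals from edgeR. Red and blue mark genes higher or lower at an adjusted p under 0.05, and the grey band spans the interquartile range of all 16005 tested genes, from -0.24 to 0.32. Klf4 (-0.49), Zfp42 (-0.42) and Tcl1 (-0.25) lie outside the band.

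**Figure D3:**
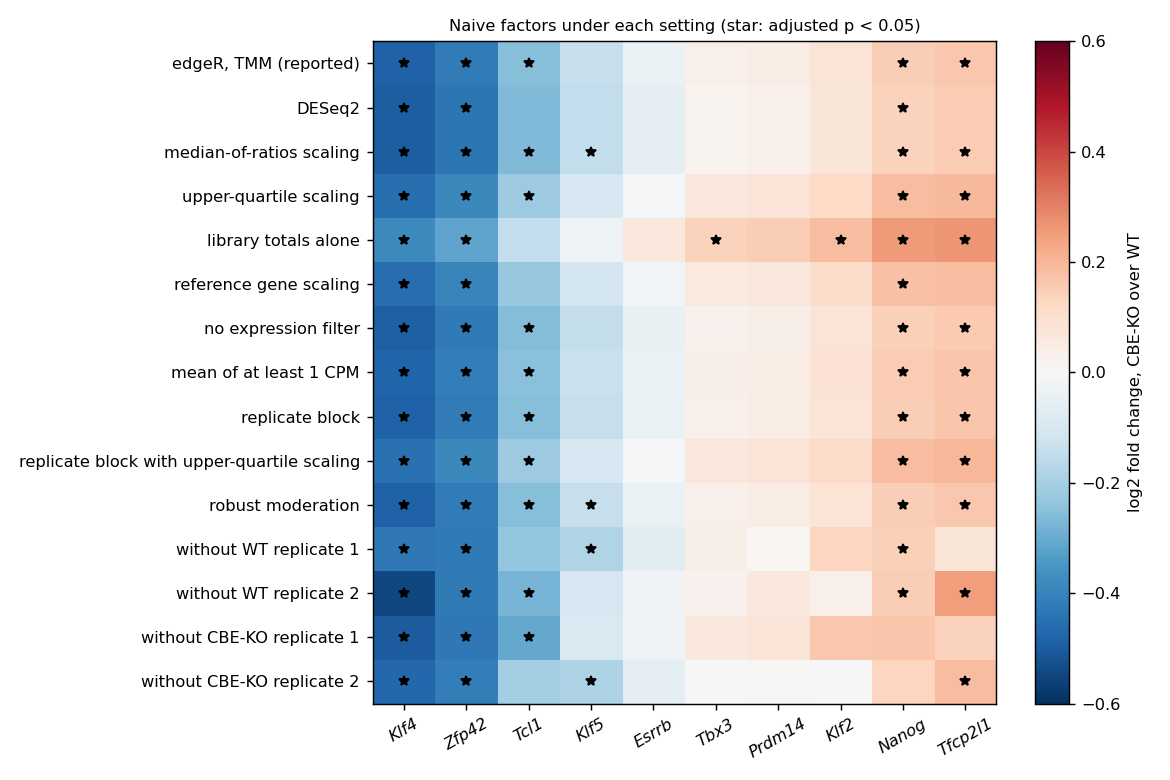
Log2 fold change of each of the 10 genes (columns) in the reported fit and under 14 alternatives (rows), on a colour scale from blue (lower in CBE-KO) to red (higher), with a star where the adjusted p was under 0.05. Klf4 and Zfp42 carry a star in every row, Nanog in all rows but those without CBE-KO replicate 1 or 2, and Esrrb and Prdm14 in none.

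In 7 of the 10 genes the libraries of the genotypes did not overlap, 5 below and 2 above, and 70.4% of all tested genes did not overlap either (33.9% below and 36.5% above), so the separation is what these libraries show in general. Within a genotype, the log2 difference between replicates of the 10 genes had a median size of 0.05 and reached 0.18 for Tfcp2l1 in WT. Between genotypes, the log2 differences of Klf4, Zfp42 and Tcl1 were larger than 0.18, and those of Nanog (0.15) and Tfcp2l1 (0.16) were not. That largest gap belongs to Tfcp2l1 and does not measure the spread of Nanog. The replicates of Nanog itself differed by -0.007 in WT and -0.038 in CBE-KO (log2, replicate 1 minus replicate 2).

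Values within a library do not depend on how libraries are scaled against each other. Of the counts of all 10 genes together, Nanog made up 24.96% and 24.85% in WT and 28.3% and 28.3% in CBE-KO. Zfp42 made up 18.6% and 18.5% in WT and 14.4% and 13.9% in CBE-KO, and Klf4 4.42% and 4.04% in WT and 3.16% and 3.02% in CBE-KO. The share of Esrrb was 14.7% and 15.1% in WT and 14.9% and 14.8% in CBE-KO, with the CBE-KO libraries between those of WT. These are shares of reads, which longer transcripts gain, so they are compared across libraries and not between genes. The shares in a library are also tied to one another, so a lower share of Zfp42 raises those of the rest. Klf2 and Tbx3, which did not pass the test, also had higher mean shares in CBE-KO (8.06% to 8.74% and 16.8% to 17.6%).

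**Figure D4:**
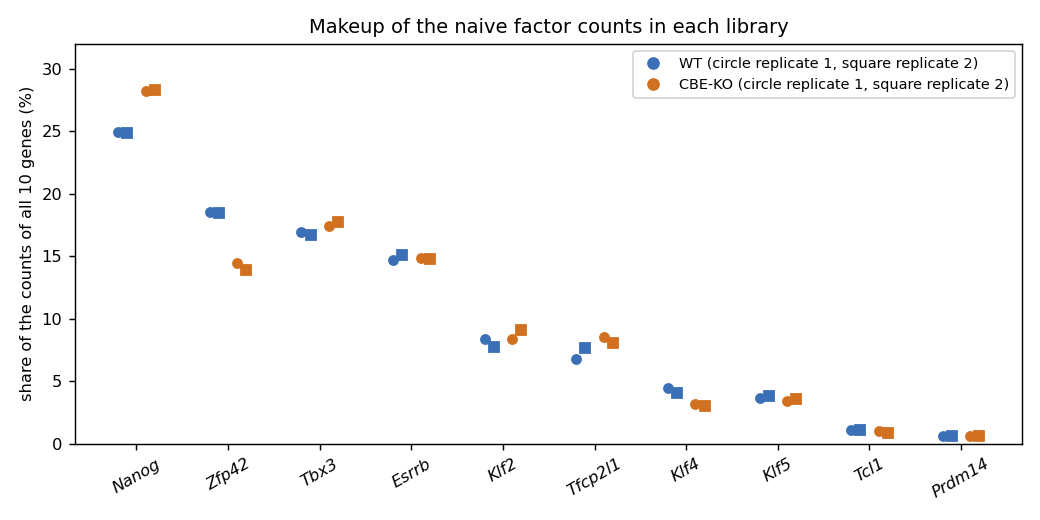
Share of the counts of all 10 genes that each gene took in each library (vertical axis, percent, from 0), with WT in blue and CBE-KO in orange. Nanog moved from a mean of 24.9% to 28.3% and Zfp42 from 18.5% to 14.2%, while Esrrb stayed at 14.9% and 14.8%.

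The ratio of Nanog to Zfp42 counts was 1.34 and 1.35 in WT against 1.96 and 2.04 in CBE-KO, a pair chosen after its values were seen. The ratio of Klf2 to Klf4 was 1.89 and 1.92 in WT and 2.65 and 3.02 in CBE-KO. Klf4 and Zfp42 kept close to a constant ratio, 0.238 and 0.219 in WT against 0.219 and 0.217 in CBE-KO, with overlap. Against Pou5f1, the POU factor on which both naive and later pluripotency depend, the count of Nanog was 0.743 and 0.833 in WT and 1.08 and 1.11 in CBE-KO. Zfp42 per Pou5f1 was 0.553 and 0.619 in WT and 0.552 and 0.547 in CBE-KO. Pou5f1 itself fell in CBE-KO, from 1084 and 972 to 817 and 815 CPM (log2 fold change -0.33 ± 0.05, SE; adjusted p = 4.71e-05 in edgeR). Relative to Pou5f1, Nanog was thus higher in both CBE-KO libraries and Zfp42 was lower in both, though barely below WT replicate 1. The rise was not particular to Nanog. Esrrb, Klf2, Klf5, Tfcp2l1, Tbx3 and Prdm14 per Pou5f1 were also higher in both CBE-KO libraries. Their log2 differences ran from 0.19 for Klf5 to 0.50 for Tfcp2l1. Klf4 per Pou5f1 was lower and Tcl1 overlapped. The fall of Pou5f1 enters every one of these ratios.

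Together the 10 genes held 0.309% (95% exact binomial interval 0.306 to 0.312) and 0.316% (0.313 to 0.319) of all counts in WT and 0.325% (0.322 to 0.328) and 0.331% (0.328 to 0.334) in CBE-KO, intervals that cover counting error only. On the TMM scale their sum was 3228 and 3259 CPM in WT and 3129 and 3205 CPM in CBE-KO, so which genotype was higher in total turned with the scaling.

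Other lists of genes around the network give these values a frame. Their counts stand beside the 43.1% of all tested genes that passed, 21.6% higher and 21.5% lower. Among 12 further genes used as naive markers, 10 were tested, of which 3 rose, 4 fell and 3 did not pass, with a median log2 fold change of -0.06. Gbx2, a homeobox gene downstream of LIF and Stat3, fell from 28.9 and 29.4 CPM in WT to 9.86 and 10.0 CPM in CBE-KO (log2 fold change -1.55 ± 0.11, SE; adjusted p = 5.77e-09 in edgeR). Tdh, the threonine dehydrogenase that embryonic stem cells rely on, fell by 1.06 and Nr0b1, an orphan receptor that binds Pou5f1 and Esrrb, by 1.04 on the log2 scale. The 3 that rose, named after their values were seen, were Dppa5a (0.28), Jam2 (0.31) and Pecam1 (0.22).

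Of 8 core factors and their close partners, 7 fell (87.5%, beside 21.5% of all tested genes) and the median was -0.86. Lin28a, an RNA-binding protein that blocks let-7 maturation, had 259 and 272 CPM in WT and 128 and 128 CPM in CBE-KO (log2 fold change -1.05 ± 0.05, SE; adjusted p = 3.54e-11 in edgeR). Utf1 and Tdgf1 were the others with the largest changes, -1.67 and -1.20. Sox2 fell by 0.35, in the same range as Pou5f1. Among 11 tested genes of formative and primed pluripotency, the states that follow the naive one, 3 rose and 6 fell, with a median of -0.38. Dnmt3b, a methyltransferase that Prdm14 is known to restrain, fell from 186 and 192 CPM to 86.0 and 86.8 CPM (log2 fold change -1.13 ± 0.05, SE; adjusted p = 1.74e-11 in edgeR). Sox3 rose by 1.44 ± 0.10 and Cdh2, the N-cadherin of neural and mesodermal cells, by 1.43 ± 0.26 on the log2 scale (SE). Fgf5, a primed marker, was counted 2 and 2 times in WT against 4 and 0 times in CBE-KO and was not tested.

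The signalling inputs of the network were compared as 3 lists, beside 21.6% higher and 21.5% lower over all tested genes. In the LIF and Stat3 list, 4 of 9 genes rose and 3 fell, with a median of 0.13. Il6st, the receptor subunit shared by LIF-type cytokines, had 27.7 and 28.8 CPM in WT and 40.1 and 41.0 CPM in CBE-KO (log2 fold change 0.52 ± 0.08, SE; adjusted p = 4.44e-05 in edgeR), and Stat3 rose by 0.40. Lif, the ligand, was counted 63 and 86 times in the WT libraries against 44 and 43 times in the CBE-KO libraries. Its log2 fold change was -0.90, and the call was lost without WT replicate 2 (-0.61). Of the 12 genes of FGF and ERK signalling, 3 rose and 7 fell, with a median of -0.33. The feedback inhibitors Spry2 and Spry4 fell most, Spry2 from 67.1 and 63.3 CPM to 16.5 and 19.2 CPM (log2 fold change -1.87 ± 0.09, SE; adjusted p = 2.61e-11 in edgeR) and Spry4 by 1.61, and Etv4, an ETS factor induced by ERK, fell by 1.01. In the GSK3 and Tcf7l1 list 6 of 8 genes did not pass, and the median was -0.04. Nkd1, a feedback gene of Wnt signalling, rose from 30 and 21 counts to 108 and 112 (log2 fold change 1.99 ± 0.24, SE; adjusted p = 3.80e-06 in edgeR). Tcf7l1, the repressor that GSK3 inhibition relieves, fell from 152 and 151 CPM to 95.9 and 100.7 CPM (log2 fold change -0.62 ± 0.05, SE; adjusted p = 3.41e-08 in edgeR).

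Of 9 genes needed for timely exit from the naive state, 6 fell (66.7%, beside 21.5% of all tested genes), with a median of -0.26. They included Tcf7l1, Rbpj, the DNA-binding partner of Notch, at -0.73, and Zfp706, a zinc finger protein that opposes self-renewal, at -0.55. Among 9 protein partners of the 10 genes, 3 rose and 3 fell, with a median of 0.03. Ncoa3, the coactivator of Esrrb, fell from 372 and 387 CPM to 239 and 222 CPM (log2 fold change -0.72 ± 0.05, SE; adjusted p = 5.20e-09 in edgeR), while Mta1 and Sall1, found in repressor complexes with Nanog, rose by 0.54 and 0.39. Of 33 paralogues, 24 were tested, 6 rose and 2 fell, with a median of 0.21. The share of tested paralogues that passed, 33.3%, was below the 43.1% of all tested genes. Klf7 rose by 0.88 ± 0.21, Tfcp2, a relative of Tfcp2l1, by 0.59 ± 0.10, and Klf16 fell by 0.33 on the log2 scale (SE).

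**Figure D5:**
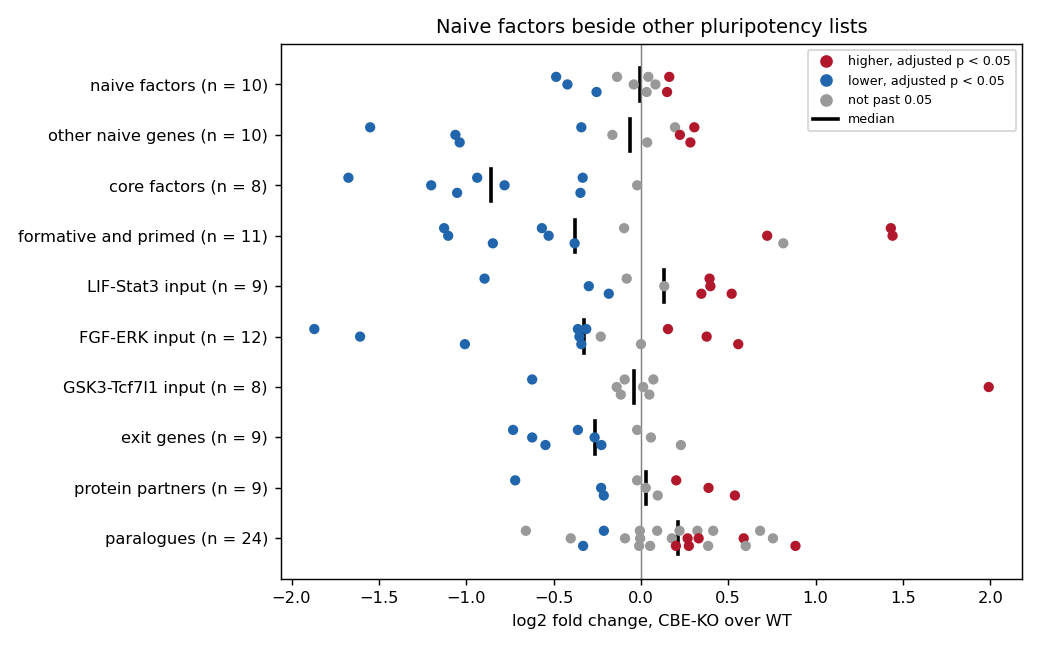
Log2 fold change of CBE-KO over WT (horizontal axis) for each tested gene of the 10 naive factors and of 9 other lists, with a black bar at each median and colour for genes past an adjusted p of 0.05. The naive factors lie between -0.49 and 0.16 around a median of -0.0042. The list of core factors and their close partners lies around -0.86, with Pou5f1 at -0.33 and Sox2 at -0.35.

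The 10 genes thus spanned log2 fold changes from -0.49 to 0.16 and those of the core list from -1.67 to -0.02, with Zfp281 (-0.02) the 1 core gene that did not pass. The lists share genes with one another and were not tested against each other.

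Markers of cell types were summed per library over the whole of each list, tested or not, so a sum is not that of the genes that passed. Their counts stand beside the 43.1% of all tested genes that passed, 21.6% higher and 21.5% lower. Of the tested trophoblast and germ cell markers 28.6% and 33.3% passed, below that share. For embryonic stem cells, extraembryonic endoderm and fibroblasts 100%, 62.5% and 50% passed. Of 7 markers of embryonic stem cells, 2 rose and 5 fell, with summed levels of 2510.2 to 2635 CPM in WT and 2060.1 to 2068 CPM in CBE-KO. Of 10 markers of extraembryonic endoderm 8 were tested and 5 rose (Col4a1, Dab2, Gata4, Lama1 and Sox7), while Gata6, Sox17 and Foxa2 did not pass. All 10 summed to 144 to 154 CPM in WT and 187 to 191 CPM in CBE-KO. Within that sum Lama1 went from a mean of 32.9 to 48.4 CPM and Col4a1 from 41.1 to 53.0 CPM, and Gata6 from 50.8 to 51.1 CPM. Of 8 trophoblast markers 7 were tested and 2 fell (Ascl2 and Tfap2c), and all 8 summed to 47.6 to 47.8 CPM in WT and 33.7 to 34.8 CPM in CBE-KO. Of 6 germ cell markers, 2 rose (Dazl and Mael), and all 6 summed to 86.2 to 91.6 CPM in WT and 135 to 141 CPM in CBE-KO, with Dazl going from a mean of 15.7 to 53.7 CPM. Of 7 fibroblast markers 2 were tested and 1 rose, with sums of 11.4 to 12.9 CPM in WT and 14.8 to 17.6 CPM in CBE-KO, and Dcn, Postn and Lum had no count in any library. Klf5 and Esrrb are also active in trophoblast, Tbx3 in endoderm and Prdm14 in germ cells. The part of such cells in the values of the 10 genes was not tested, and in bulk RNA fewer cells that express a gene and less of its RNA per cell cannot be told apart.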

How the data were processed

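The deposited tables hold raw read counts per Ensembl gene identifier, 1 table per library, with no normalization by the authors as the values show. The submitters' processing notes name HISAT2 2.1.0, HTSeq 0.9.1, DESeq2 1.18.1, Bowtie2 2.3.1 and the build mm10, without saying which step each served. Annotation release, strand setting and the treatment of reads with several matches are not given in the sources used here, so genes with copies or antisense partners, such as Nanog, Zfp42 and Tbx3, are uncertain. The 6 Capture-C libraries were not analysed here.

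Genes were kept with edgeR's filterByExpr, scaled by TMM and tested with glmQLFit and glmQLFTest of edgeR 4.0.16 (R 4.3.3) with genotype as the only term, p-values being two-sided and adjusted by Benjamini-Hochberg over all 16005 genes (threshold 0.05). An error after ± is the SE of a log2 fold change. Sample titles gave genotype and replicate number. The 10 genes and the lists were chosen with earlier results of these data known. Named genes are all 10 and, per list, the 3 called genes with the largest log2 fold change and no overlap between genotypes. Other list genes (Pou5f1, Sox2, Zfp281, Fgf5, Dppa5a, Jam2, Pecam1, Yy1, marker genes and the Krüppel-like factors beside Klf7 and Klf16) fall outside this rule and were named after their values were seen. The main edgeR fit and DESeq2 were also tried on counts simulated from the levels of these libraries, and the other alternatives were not. Alternatives were DESeq2 1.42.0, 4 scalings (median of ratios, upper quartile, library totals, 12 reference genes), other filters, a replicate block alone and with upper-quartile scaling, robust moderation, stricter thresholds and each library left out.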

Additional observations from a re-analysis of the deposited data

How the results depend on the processing

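Of the 10 genes, 2 were called higher and 3 lower. The number higher was 1 in DESeq2, 4 with library totals alone, 1 with reference gene scaling, and 0 at an adjusted p under 0.01 in edgeR. No gene was called in either direction (0 higher and 0 lower) once edgeR calls were held to a change of 1 or more on the log2 scale, which none has. With 1 library left out, Klf4 and Zfp42 were called lower in every such fit, while the calls of Tcl1, Klf5, Nanog and Tfcp2l1 changed. The log2 fold changes then ran from -0.31 to -0.21 for Tcl1 and from -0.18 to -0.09 for Klf5. They ran from 0.13 to 0.17 for Nanog and from 0.07 to 0.25 for Tfcp2l1. Those fits assume that the lone library of a genotype varies like the others. The cause of these shifts was not tested. Over all genes, 3461 were higher and 3434 lower in edgeR. DESeq2 called 2047 higher, and a change of 1 or more on the log2 scale left 975 higher and 408 lower. The higher share of all calls was 50.2% with TMM and 67.0% with library totals alone, where the median over all genes was 0.11. Of the 12 reference genes, 2 were higher and 5 lower themselves. In the surrounding lists together, with genes shared by lists counted once, 23 genes were higher and 36 lower, and 3 and 11 with a log2 fold change of at least 1. The number of distinct genes tested in these lists is not given here, so these counts cannot be read as shares. Over all tested genes the shares were 21.6% higher and 21.5% lower, and 8.64% passed with such a change.

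The median log2 fold change of the 10 genes, -0.0042, is too near 0 for a direction. It became 0.030 with upper-quartile scaling, 0.100 with library totals alone, 0.020 with reference gene scaling and 0.030 with the replicate block and upper-quartile scaling, and ran from -0.028 to 0.017 when 1 library was left out. Esrrb turned from -0.04 to 0.063 with library totals alone. Titles give both genotypes the numbers 1 and 2, but deviations of same-numbered libraries had a correlation of 0.037, so the numbers are not shown to pair them. With the replicate block 2 genes of the 10 were higher and 3 lower, the median was -0.0042, and no call among the 10 changed. Prdm14, with the fewest counts of the 10 (266 to 310 per library), had the widest interval of the fold, and no detection limit was computed.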

Other observations

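The tables hold 2 noncoding genes named as antisense to Tbx3, looked up after the data were seen. Tbx3os1 was counted 29 and 41 times in WT against 35 and 40 times in CBE-KO (log2 fold change -0.02, edgeR adjusted p = 0.969). Tbx3os2 was counted 107 and 85 times in WT against 59 and 68 times in CBE-KO, which is a log2 fold change of -0.71 ± 0.21 (SE; adjusted p = 0.0116 in edgeR), beside 0.03 ± 0.05 (SE) for Tbx3. In RefSeq's annotation of GRCm38.p6, Tbx3os1 overlaps Tbx3 and Tbx3os2 does not. Since the strand setting of the counts is not given, reads of Tbx3 and Tbx3os1 cannot be told apart where they overlap. Whether Tbx3os2 overlaps Tbx3 in the annotation used for counting is not known.

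Among the Krüppel-like factors outside the 10 genes, Klf3 rose from 101 and 103 CPM in WT to 127 and 130.2 CPM in CBE-KO (log2 fold change 0.33 ± 0.05, SE; adjusted p = 4.98e-05 in edgeR). Klf6 (0.27), Klf7 (0.88) and Klf8 (0.27) also rose, and Klf16 fell (-0.33). Klf9, Klf10 and Klf13 had log2 fold changes of -0.01, 0.05 and -0.0045 that did not pass. Klf12 (-0.66), Klf1, Klf11, Klf15 and Klf17 did not pass either. Among all tested paralogues 33.3% passed, beside 43.1% of all tested genes. Yy1, the conserved relative from which Zfp42 arose, fell by 0.21 ± 0.05 on the log2 scale (SE; adjusted p = 0.00265 in edgeR).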
